A study of Mus musculus with 8 samples.

Results

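Septins are GTP-binding proteins that assemble into mixed filaments and rings beneath the cell membrane and along actin and microtubules. Each filament is built from members of different subgroups, so the mixture of septins that a cell makes sets which filaments it can form. They are known as scaffolds of the cleavage furrow in dividing cells and, in neurons and endocrine cells, as partners of the machinery that brings secretory vesicles to the membrane. The 10 septins described here are Sept2 to Sept11, found by gene symbol among the 23100 genes of the count table, and all 10 passed the filter that left 14331 genes for testing. They were chosen because Sept4 stood apart from the others in the response to Zac1, so that response is given as a description and not as a test. Sept1, Sept12 and Sept14 were also in the table and were too low to be tested.

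The cells were Min6, a mouse insulinoma line with features of pancreatic beta cells, transfected with Lipofectamine and harvested 16 h later. Of 8 libraries, 4 came from cells given pRK5-Zac1, a plasmid that expresses the zinc finger transcription factor Zac1 (gene Plagl1), and 4 from cells given pRK5-NLSeGFP, a control plasmid that expresses a nuclear green fluorescent protein. The libraries are numbered 1, 2, 3 and 5 in each group, and the design text calls them biological replicates, but nothing says that they came from separate cultures, so the spread between them may be technical. The share of cells that took up a plasmid is not given in the sources used here, and in bulk RNA a change in a few cells and a smaller change in all cells cannot be told apart.

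Library totals ran from 30.5 to 42.4 M counts, where M stands for 1e+06. Levels are counts per M counts with totals scaled by the TMM method of edgeR (CPM), as mean ± SD over n = 4 libraries of a group. Plagl1 stood at 77.8 ± 7.38 CPM in the control and 4631 ± 778 CPM in the Zac1 libraries, and plasmid and endogenous transcripts are counted together. All 13 listed beta cell markers had reads, with Ins2 at 40170 ± 6669 against 37038 ± 3007 CPM. None of the 13 was called at an edgeR adjusted p under 0.05, beside 2.18% of all tested genes, so little can be read from that count. Gcg, the glucagon gene of alpha cells, was also present, at 1432 ± 182 against 1557 ± 380 CPM.

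The starts of the septin genes were examined first, because Zac1 is a DNA-binding protein. RefSeq promoter windows (mouse GRCm38.p6, from 250 bases before to 50 after an annotated start) were given for 7 of the 10 members, with 16 windows in all. The reads were aligned to mm9, so these coordinates belong to the RefSeq table and not to the count data. Each window was searched on both strands for elements that Zac1 is reported to bind, the palindrome GGGGCCCC and the gapped repeat GGGGNGGGG. Of all 32851 windows, 1.08% held the palindrome and 22.4% the gapped repeat. Among the septin windows, the palindrome was found in 2 of 16, at 1 start of Sept4 and 1 start of Sept7, and the gapped repeat in 10 of 16. With C as its middle base the gapped repeat is also the GC box bound by Sp1, which held for 7 of the 11 distinct gapped sites. The 2 windows of Sept2 overlap and share 1 of these sites. Apart from Sept4 start 1, the septin windows held 57.3% to 77.0% G or C, above the median of 52.7% over all windows. Both elements consist almost wholly of G and C. Whether the septin windows hold more matches than other windows of like G and C content was not tested.

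The windows printed here are those of Sept4 starts 1, 3 and 4, since Sept4 is the member called for Zac1, and the Sept7 window that also holds the palindrome. Each runs 5′ to 3′ from 250 bases before the start to 30 bases into the transcript, and capitals mark the matches to either element.
Sept4 start 1, chr11:87566439-87566718, + strand: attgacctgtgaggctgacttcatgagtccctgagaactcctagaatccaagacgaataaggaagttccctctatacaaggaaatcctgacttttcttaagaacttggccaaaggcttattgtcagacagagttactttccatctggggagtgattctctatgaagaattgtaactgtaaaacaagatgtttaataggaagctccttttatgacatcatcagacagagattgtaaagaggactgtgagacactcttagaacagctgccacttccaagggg
Sept4 start 3, chr11:87578170-87578449, + strand: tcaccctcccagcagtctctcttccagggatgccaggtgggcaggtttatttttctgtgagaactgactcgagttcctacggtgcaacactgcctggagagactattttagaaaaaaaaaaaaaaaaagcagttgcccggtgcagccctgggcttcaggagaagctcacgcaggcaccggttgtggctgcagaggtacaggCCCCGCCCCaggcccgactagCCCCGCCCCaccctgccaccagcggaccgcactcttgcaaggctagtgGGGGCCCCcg
Sept4 start 4, chr11:87580811-87581090, + strand: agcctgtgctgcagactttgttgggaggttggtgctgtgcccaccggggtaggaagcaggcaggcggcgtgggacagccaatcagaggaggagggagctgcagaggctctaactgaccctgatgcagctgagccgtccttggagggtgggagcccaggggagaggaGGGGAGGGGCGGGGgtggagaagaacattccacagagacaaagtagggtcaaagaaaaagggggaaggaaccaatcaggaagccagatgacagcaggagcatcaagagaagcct
Sept7 start 1, chr9:25251741-25252020, + strand: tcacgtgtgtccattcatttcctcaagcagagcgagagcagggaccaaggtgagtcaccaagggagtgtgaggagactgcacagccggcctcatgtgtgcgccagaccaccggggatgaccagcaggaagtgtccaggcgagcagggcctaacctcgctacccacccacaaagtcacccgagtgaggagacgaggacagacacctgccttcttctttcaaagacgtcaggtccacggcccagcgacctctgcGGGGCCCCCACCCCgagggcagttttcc
In the window of Sept4 start 1, 42.3% of the bases were G or C, with 1 CpG and no match. That of start 3 holds the palindrome from 20 to 27 bases after the start, and 2 gapped matches before it, in 59.7% GC. Start 2 of Sept4 lies so close to start 3 that its window covers nearly the same bases. In the window of start 4, 2 overlapping gapped matches lie between 84 and 71 bases before the start. In Sept7 the palindrome lies from 2 to 9 bases after the start and overlaps a gapped match on the other strand. A median window of the table had 52.7% GC and 7 CpG. A match shows only that the letters are there. The counts are per gene and do not tell which Sept4 start was used.

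**Figure D1:**
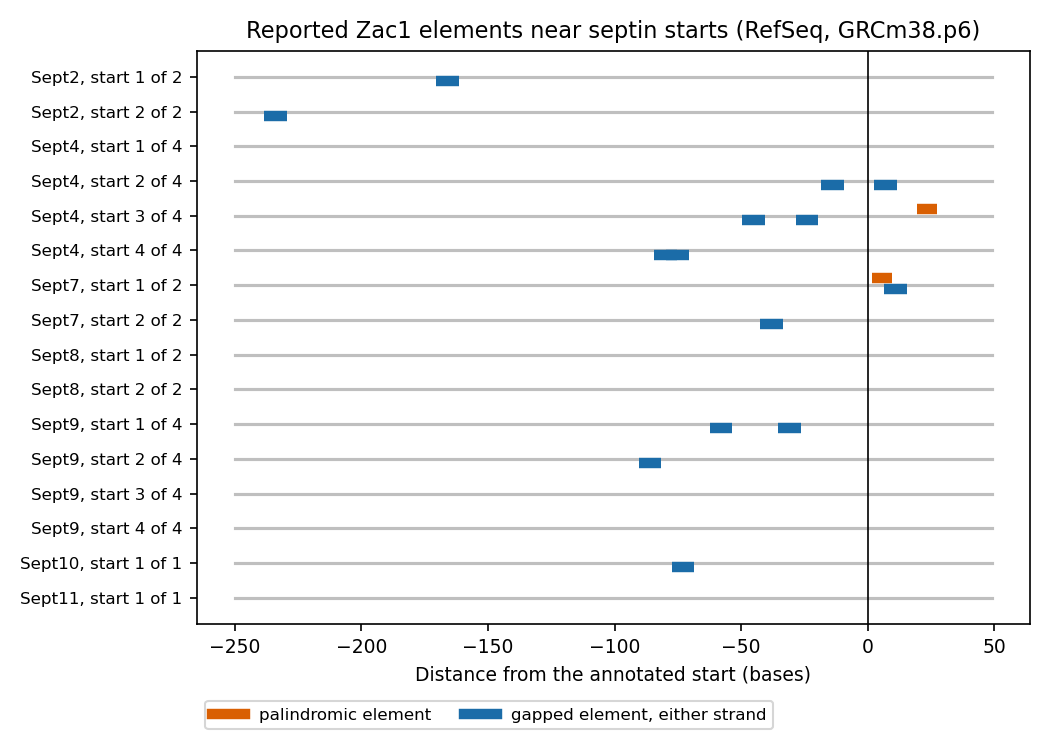
Matches to the reported Zac1 elements in the 16 RefSeq windows of 7 septins. Each grey line is 1 window, with the annotated start at 0 on the horizontal axis (bases), orange blocks are the palindrome and blue blocks the gapped repeat on either strand. The palindrome is seen in 1 Sept4 and 1 Sept7 window, and the gapped repeat in 10 windows of 5 genes.

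Members were taken by subgroup, beginning with the Sept2 subgroup. Sept2, a septin of stress fibres and the cleavage furrow, had the most reads of the family. It stood at 309, 293, 305 and 337 CPM in control libraries 1, 2, 3 and 5 and at 289, 311, 300 and 322 CPM in the Zac1 libraries of those numbers. The groups overlapped throughout, and the log2 fold change (Zac1 minus control, edgeR, ± SE) was -0.02 ± 0.05.

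Sept4 is known in the sperm annulus and in stellate cells of the liver, and a form of it called ARTS binds an inhibitor of apoptosis. It was the septin with the fewest reads of the 10 in the control cells, with 18, 22, 32 and 35 counts per library. That is 0.527, 0.625, 1.01 and 1.15 CPM in control libraries 1, 2, 3 and 5. The Zac1 libraries held 124, 144, 110 and 180 counts, or 2.96, 4.09, 2.65 and 4.26 CPM. All 4 Zac1 libraries lay above all 4 control libraries, the lowest of the former at 2.31 times the highest of the latter. The means were 0.826 ± 0.297 CPM in control and 3.49 ± 0.801 CPM in Zac1 libraries. The fold change was 4.25 (log2 2.09 ± 0.24, SE, with a 95% interval of 1.57 to 2.61). From the 107 control and 558 Zac1 counts alone, the ratio was 4.27 with an exact 95% counting interval of 3.47 to 5.30. Such intervals cover counting error only.

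Sept5 binds the membrane fusion protein syntaxin 1A in neurons. By coding sequence it is the nearest relative of Sept4 among the members, with 75.7% identical bases over 1101 aligned positions. It stood at 71.1, 70.7, 70.1 and 60.9 CPM in the control and at 74.0, 68.9, 72.0 and 63.1 CPM in the Zac1 libraries. The library numbered 5 was the lowest of each group, and the groups overlapped (log2 0.03 ± 0.06). Sept5 is reported as uncertain, since 80.4% of the 50-base stretches of its annotated transcripts also occur in Gm49601 or Gp1bb, and Gp1bb overlaps it on the same strand. No 50-base stretch of Sept4 occurred exactly in a transcript of another gene in GENCODE M21. Stretches with mismatches were not searched, and the annotation behind the counts is not given in the sources used here.

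The Sept3 subgroup held a neuronal septin and a ubiquitous one. Sept3, found at presynaptic endings, had 89.8, 90.1, 90.6 and 90.5 CPM in control and 91.2, 89.6, 87.7 and 96.7 CPM in Zac1 libraries. Its control values were the closest together of the 10 members, with a coefficient of variation of 0.455%, against a median of 7.44% over all tested genes. In the Zac1 libraries the coefficient was 4.21%, so this closeness was not seen in both groups. The groups overlapped, with a log2 fold change of 0.02 ± 0.05. Sept9 bundles microtubules and actin and is needed for the final cut of cell division. Its control values were 83.2, 86.7, 86.4 and 85.1 CPM and its Zac1 values 96.7, 93.9, 97.8 and 88.1 CPM. The groups did not overlap, by a narrow margin set by Zac1 library 5, and the fold change was 1.10 (log2 0.14 ± 0.05, 95% interval 0.04 to 0.24). In the fit with group as the single term, Sept9 did not pass the edgeR threshold. With a term for the replicate number added, it did (edgeR adjusted p = 0.0448), but the numbers are not known to pair the libraries. This was the only 1 of 16 alternative fits that called it. Sept9 was chosen with its response in view, so neither outcome is read as a test.

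In the Sept6 subgroup, Sept6 itself had the fewest reads. It stood at 11.4, 12.4, 11.6 and 13.1 CPM in the control and at 14.6, 12.5, 13.2 and 14.6 CPM in the Zac1 libraries. Only Zac1 library 2 lay within the control range, and the fold change was 1.14 (log2 0.18 ± 0.08, 95% interval 0.01 to 0.36). Sept6 did not pass the threshold in either of these fits. Sept8, which has been linked to vesicle proteins in neurons, had 48.1, 55.3, 53.4 and 45.9 CPM in control and 58.4, 54.9, 55.0 and 52.0 CPM in Zac1 libraries. Its groups overlapped, with a log2 fold change of 0.12 ± 0.06. Sept10 ranged from 26.6 to 29.5 CPM in the control and from 28.7 to 30.1 CPM in the Zac1 libraries (log2 0.05 ± 0.06). Sept11, found in neurons and at cell junctions, ranged from 143 to 153 CPM and from 148 to 163 CPM (log2 0.05 ± 0.05). Sept11 overlaps Ccni on the opposite strand, and since the strand setting of the counting is not given, its reads are uncertain.

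Sept7 is the sole member of its subgroup and sits in nearly every septin filament. It had 246, 212, 241 and 252 CPM in control and 229, 235, 227 and 239 CPM in Zac1 libraries. Every Zac1 value lay inside the control range, and the log2 fold change was -0.03 ± 0.05. Sept7 shares with Sept4 the palindrome near a start, as printed above.

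**Figure D2:**
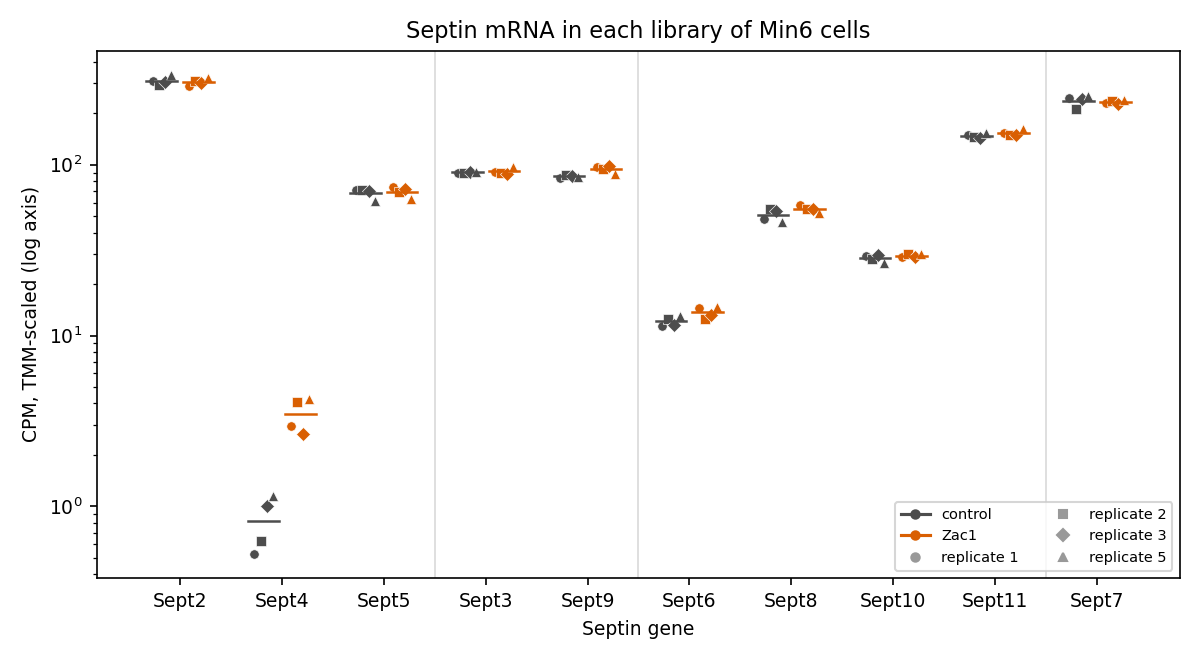
CPM (log axis) of the 10 septins in each library, grouped by subgroup from left to right (Sept2, Sept3, Sept6 and Sept7 subgroups). Grey points are control and orange points Zac1 libraries, the shape gives the replicate number and the bars are means of 4 libraries. Sept4 is the lowest member, at 0.527 to 1.15 CPM in control and 2.65 to 4.26 CPM in Zac1 libraries, while the other 9 lie above 11 CPM in all 8 libraries.

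Across the family, 1 of the 10 members was called by edgeR (adjusted p under 0.05), against 2.18% of all tested genes. The CPM of the groups did not overlap for 2 members, Sept4 and Sept9, against 5.79% of all tested genes. Because the septins were chosen for this contrast, nothing is read from either count. The 9 members other than Sept4 had log2 fold changes from -0.03 to 0.18, 7 above and 2 below 0, with a median of 0.05, beside -0.01 for all tested genes. Their 95% intervals together reached from 0.903-fold to 1.28-fold. Sept4 lay 1.91 above the next member, Sept6, on the log2 scale. Among the 308 genes called higher (2.15% of those tested), Sept4 held rank 107 by fold change. Its control mean was above that of 10.9% of tested genes.

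**Figure D3:**
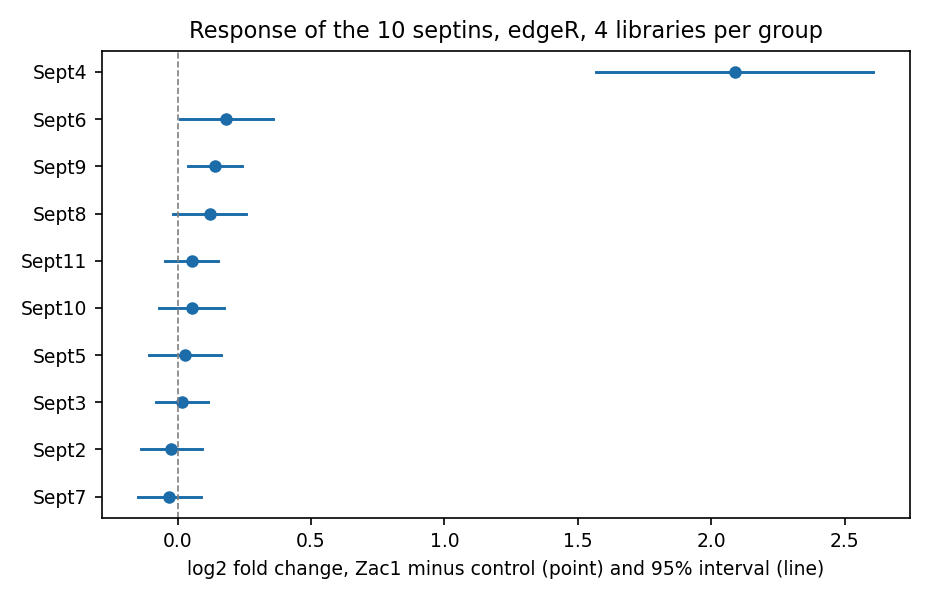
Log2 fold change (Zac1 minus control, horizontal axis) of each septin from edgeR with 4 libraries per group. Points are estimates and lines 95% intervals. Sept4 lies at 2.09, and the other 9 members lie between -0.03 and 0.18.

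Summed over the 10 members, septin mRNA differed by less than the spread between libraries, at 1032 ± 29.6 CPM in control and 1048 ± 17.6 CPM in Zac1 libraries. Sept2 made up 30.1% ± 1.02 of septin counts in control and 29.1% ± 0.945 in Zac1 libraries, and Sept7 23.0% ± 1.14 and 22.2% ± 0.186. Sept4 made up 0.0508%, 0.0629%, 0.0974% and 0.107% of septin counts in control libraries 1, 2, 3 and 5. In the Zac1 libraries its share was 0.286%, 0.389%, 0.257% and 0.397%. From counting error alone, the highest control share had an exact binomial 95% interval of 0.0749% to 0.149%. That of the lowest Zac1 share was 0.211% to 0.309%. Neither covers the spread between libraries. With Zac1, Sept4 thus remained below 0.4% of the septin reads.

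Levels of different genes are comparable only per length, and here the longest protein-coding transcript in GENCODE M21 was used. In control libraries Sept7 led at 93.9 ± 7.07 CPM per kb, followed by Sept2 at 82.2 ± 4.94 CPM per kb, with overlapping ranges. Sept11 came next at 29.4 ± 0.879 CPM per kb, then Sept9 at 22.1 ± 0.414 CPM per kb. Sept5 at 18.5 ± 1.33 and Sept3 at 18.1 ± 0.0822 CPM per kb overlapped, as did Sept10 at 11.2 ± 0.520 and Sept8 at 11.1 ± 0.963 CPM per kb. Sept6 stood at 2.59 ± 0.168 and Sept4 at 0.478 ± 0.172 CPM per kb. Sept6 was thus 5.42 times as high as Sept4 per length in control and 1.45 times as high in Zac1 libraries, where Sept4 reached 2.02 ± 0.464 CPM per kb. Sept7, the most abundant per length, was 196 times as high as Sept4 in control and 45.4 times in Zac1 libraries. These ratios depend on the length used. Per coding length, Sept6 was 16.2 times as high as Sept4 in control and 4.34 times in Zac1 libraries, and Sept2 led in place of Sept7, at 498 and 116 times the level of Sept4. Sept6 and Sept4 were the lowest with either length. The transcript forms present in Min6 cells are not known from these counts, so the order in the middle of the family rests on the lengths chosen.

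The septins outside the list were near silence. Sept1 had 4 to 10 counts per control library and 6 to 17 per Zac1 library. Sept12, a septin of the testis, had 2 to 5 and 1 to 6 counts. Sept14 had 0 to 3 and 1 to 6 counts. A floor of 3 counts is 0.0982 CPM in the shallowest library, and no fold is given for these genes, of which none was tested.

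For 7 of the 10 septins the library numbered 5 held the same extreme place in both groups. It was the highest of its group in both for Sept2, Sept4, Sept6, Sept7 and Sept11, and the lowest in both for Sept5 and Sept8. Sept3, Sept9 and Sept10 had no such shared place. Over all tested genes, 16.0% were highest and 17.8% lowest in that library in both groups. For Sept4 it stood 0.67 above the mean of the other libraries on the log2 scale in control and 0.40 above in Zac1 cells. For Sept5 it stood 0.21 below in control (log2 -0.21) and 0.18 below in Zac1 cells (log2 -0.18). Without control library 5 the log2 fold change of Sept4 was 2.29, and without Zac1 library 5 it was 1.98. Without both libraries numbered 5 it was 2.17 ± 0.24 (SE).

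The genes beside Sept4 on chromosome 11 were read next, since they lie on the same strand. Tex14, a germ cell gene on the side of the Sept4 start, had 0.497, 0.512, 0.408 and 0.393 CPM in control and 0.478, 0.681, 0.289 and 0.473 CPM in Zac1 libraries. Mtmr4, a lipid phosphatase gene beyond the end of Sept4, stood at 121 ± 7.88 CPM in control and 127 ± 7.16 CPM in Zac1 libraries. The groups overlapped for both, at log2 0.06 ± 0.30 (edgeR adjusted p = 0.987) and 0.07 ± 0.06 (edgeR adjusted p = 0.915).

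Genes with a profile most like that of Sept4 were sought among tested genes whose mean count reached 50. Unnamed gene models were passed over, which left 11135 genes. Likeness was the root mean square difference over the 8 libraries between values of log2(CPM + 0.1), each relative to its own control mean. The nearest was Fmnl1, a formin that acts on actin, at a difference of 0.355, which went from 0.812 ± 0.240 to 2.78 ± 0.728 CPM (3.42-fold). Crim1, a transmembrane protein that binds growth factors, followed at 0.438 with a 5.18-fold difference. Cpne5, a calcium-dependent membrane-binding protein, came next at 0.443 (3.73-fold), from 1.84 ± 0.218 to 6.88 ± 0.545 CPM. Ptprv (0.472) and the large cadherin Dchs1 (0.482) completed the list. Ptprv overlaps Ptpn7 and Crim1 overlaps Fez2, so their reads are uncertain. For comparison, the median difference over all these genes was 1.46. The measure picks genes with a change of the same size and uses the contrast by which Sept4 was chosen, so it is a description.

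**Figure D4:**
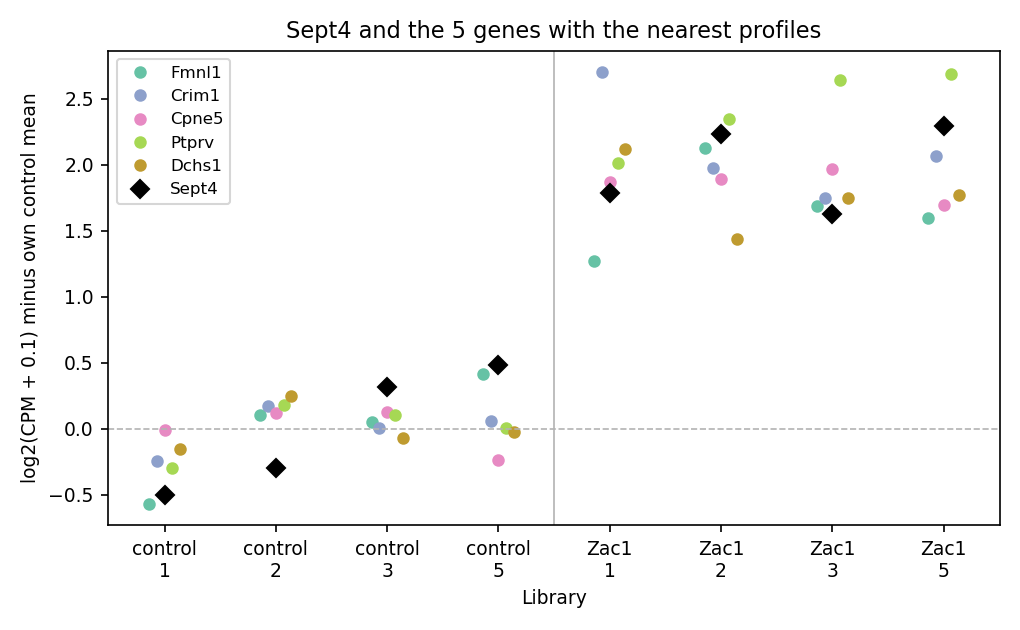
Values of log2(CPM + 0.1) relative to each gene's own control mean (vertical axis) in the 8 libraries (horizontal axis), for Sept4 (black diamonds) and the 5 genes with the nearest profiles (coloured points). All 6 genes are higher in every Zac1 library than in any control library, and Sept4 has its highest value of each group in the library numbered 5.

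Proteins that work with septins were taken as lists of genes that the choice of the members did not use. The lists were drawn up with earlier results of these data known. Of 67 listed genes 64 were tested, and none was called by edgeR in either direction (0 of 64, against 2.18% of all tested genes). None was called by DESeq2 or limma-voom either. At that share few calls are due among 64 genes, so little can be read from the count. Before adjustment (p under 0.05), 1 of the 64 was higher and 3 were lower, while 5.65% of all tested genes were higher and 1.93% lower. Their median log2 fold change was -0.03, beside -0.01 for all tested genes, and they ranged from -0.24 to 0.31.

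The highest of them was Cdc42ep3, a Borg protein that binds septins under the control of the GTPase Cdc42, at 2.32 ± 0.264 CPM in control and 2.89 ± 0.306 CPM in Zac1 libraries (log2 0.31 ± 0.14, edgeR adjusted p = 0.621). Cdc42 itself had a log2 fold change of -0.05 ± 0.05 (edgeR adjusted p = 0.947). The list of Borg proteins and Cdc42 had 0 of 4 tested genes called, with a median of 0.02.

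Among 12 tested cytoskeletal partners 0 were called, with a median of -0.03. The lowest was the large scaffold Ahnak (log2 -0.24 ± 0.12, edgeR adjusted p = 0.749), while anillin, Anln, which recruits septins to the cleavage furrow, gave -0.07 ± 0.07 (edgeR adjusted p = 0.944). Of the 15 cytokinesis genes 0 were called, with a median of -0.05. The mitotic kinase Plk1 stood at 90.3 ± 3.92 against 83.1 ± 3.08 CPM, with groups that did not overlap (log2 -0.12 ± 0.05, edgeR adjusted p = 0.493), and Aurkb, of the chromosomal passenger complex, at 51.9 ± 1.22 against 48.9 ± 1.44 CPM (log2 -0.09 ± 0.05, edgeR adjusted p = 0.781).

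The 16 inhibitors of apoptosis, caspases and related genes linked to the ARTS form of Sept4 held 0 called genes, with a median of -0.01. Xiap, the inhibitor that ARTS binds, stood at 101 ± 3.74 against 103 ± 4.87 CPM (log2 0.02 ± 0.05, edgeR adjusted p = 0.978). Birc5, survivin, gave a log2 of -0.11 ± 0.05 (edgeR adjusted p = 0.563), and Siah1b, a ubiquitin ligase, -0.15 ± 0.11 (edgeR adjusted p = 0.899). The counts are per gene and cannot tell ARTS from the other forms of Sept4.

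Exocytosis partners had 0 of 17 tested genes called and a median of -0.04. Stxbp3a, which binds syntaxins, had a log2 fold change of -0.12 ± 0.07 (edgeR adjusted p = 0.788).

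**Figure D5:**
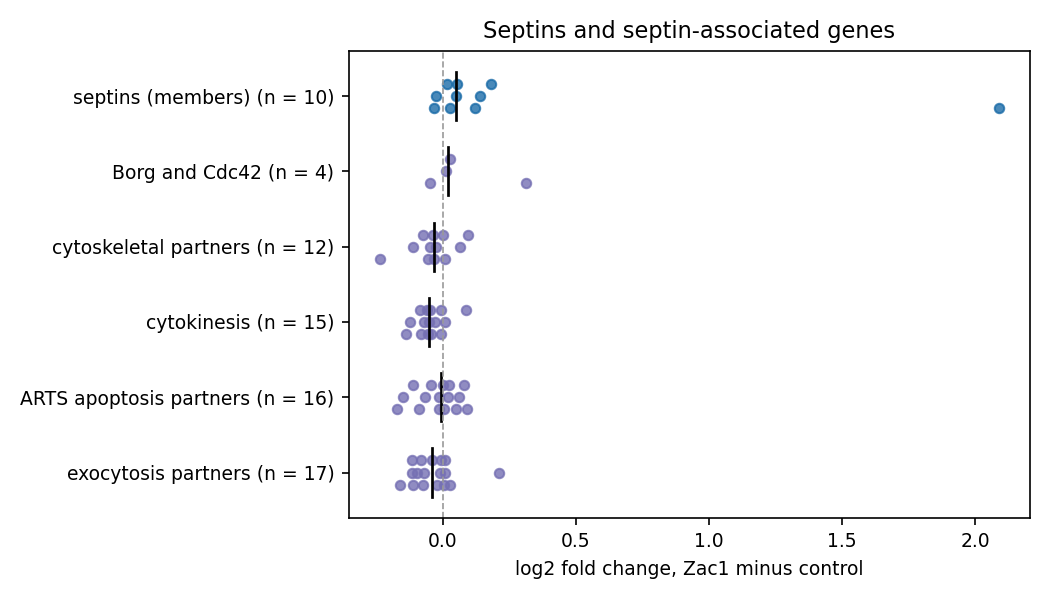
Log2 fold change (Zac1 minus control, horizontal axis) of the 10 septins and of the tested genes in 5 lists of septin-associated genes. Each point is a gene, points are spread vertically for clarity only, and black bars are list medians. Sept4 lies at 2.09, while the 64 associated genes lie between -0.24 and 0.31.

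Markers of cells in which Sept4 is known were read beside it. Of 9 stellate and mural cell markers 3 were tested and edgeR called 1 of the 3, beside 2.18% of all tested genes. It was the muscle intermediate filament Des, with 0 to 4 counts per control library and 44 to 76 per Zac1 library (edgeR adjusted p = 1.66e-05). Des passed the filter only through its Zac1 libraries, so nothing is read from this call. The summed level of the 9 ran from 1.73 to 2.36 CPM in control and from 3.45 to 3.94 CPM in Zac1 libraries. Without Des, the other 8 summed to between 1.73 and 2.36 CPM in control and between 1.95 and 2.41 CPM in Zac1 libraries, with ranges that overlapped. Acta2 and Lrat, picked from the 9 after their values were seen, were near silence. They stood at 0.0288 and 0.0316 CPM in control and 0.00709 and 0.0237 CPM in Zac1 libraries. Des, on the same list, went the other way, so nothing is read from this pick. Myh11, the most abundant of the 9 in control libraries, stood at 1.02 ± 0.156 against 0.953 ± 0.0622 CPM. The 5 male germ cell markers summed to between 0.597 and 0.884 CPM in control and between 0.520 and 0.813 CPM in Zac1 libraries, with Dazl the most abundant and Prm1 at 0 in all 8 libraries. Of 28 fibroblast, endothelial, leukocyte, glial and exocrine markers 9 were tested, and edgeR called 0 of the 9, beside 2.18% of all tested genes, with 0 at an unadjusted p under 0.05. Their most abundant genes in control libraries were Thy1 at 1.09 CPM, Pecam1 at 1.31 CPM, Cd68 at 5.63 CPM, Mbp at 94.5 CPM and Cela1 at 1.10 CPM. The part of such cells in the Sept4 values was not tested.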

How the data were processed

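Raw mRNA counts per gene, whole numbers of reads for 23100 genes in 8 libraries, were used as the authors deposited them. Per the submitters' processing notes, the tools were HTSeq 0.6.1p1, TopHat2 2.1.1 with Bowtie2 2.2.8, FastQC and bcl2fastq 2.17, and the build was mm9. Annotation, strand setting and filters: not given in the sources used here. Totals ran from 30.5 to 42.4 M counts, which leaves Sept4 with 18 to 35 reads per control library.

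Genes were filtered by filterByExpr in edgeR 4.0.16 (R 4.3.3), scaled by TMM and fitted by robust quasi-likelihood with group as the single term. P-values were adjusted by Benjamini-Hochberg over 14331 genes, with a threshold of 0.05. Each SE is the log2 fold change divided by the root of its F. The fit was tested on simulated counts. DESeq2 1.42.0, limma-voom (limma 3.58.1), other scaling and filters, a replicate block and left-out libraries were alternatives. Coding sequences of GENCODE M21 were aligned globally with Biopython 1.88.

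The members and lists were chosen with earlier results of these data known. Named are all members, Plagl1, the other septins, the neighbours of Sept4, the 5 genes most like it, and from each partner list the 2 genes with the smallest p and any called gene. From the marker lists, called and most abundant genes are named, and Acta2, Lrat and Prm1, as well as Xiap, were chosen after their values were seen. One listed gene, Map4, had no matching symbol. One gene that this rule names is not reported here. Protein sequences were not used here.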

Additional observations from a re-analysis of the deposited data

Results flagged for a closer look

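In 62 groups of 4 libraries from 31 genes, the gap between 1 library and the nearest other was compared with the range of the group, and 4 groups had a library that stood apart. Chance flags about 1 in 20 groups. Sept5 in control library 5 was at 60.9 CPM, while the other control libraries lay between 70.1 and 71.1 CPM. Plagl1 in Zac1 library 1 was at 5788 CPM, and the others lay between 4119 and 4370 CPM. The remaining cases rest on very few counts. Sept12 was at 0.170 CPM in Zac1 library 2, against 0.0239 to 0.0473 CPM in the others. Sept14 was at 0 CPM in control library 1, against 0.0853 to 0.0982 CPM.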

How the results depend on the processing

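The 16 alternatives included other scalings, filters and tests and each library left out in turn. Over them the log2 fold change of Sept4 ran from 1.93 to 2.29, and Sept4 stayed past the threshold. The septins were chosen for this contrast, so nothing is read from which of them were called. Sept6, Sept8, Sept9, Sept10 and Sept11 lay above 0 in all 16. The sign of Sept2, Sept3, Sept5 and Sept7 varied: they lay below 0 in 14, 2, 2 and 15 of the 16, so no direction is given for them. In a fit with a replicate block, the count of called genes was 628 in place of 313, and 1 septin other than Sept4 in place of 0, which was Sept9 (log2 0.14, edgeR adjusted p = 0.0448, with a range of 0.0448 to 0.578 over the alternatives). This was the one alternative in which another septin was called, and the cause was not tested. Libraries of the same number correlated in their deviations from the group means at 0.07 to 0.53 over 12219 genes, against -0.50 to 0.19 for other pairs. The libraries numbered 2 had the lowest of these, 0.07, and control library 2 correlated best with Zac1 library 3 (0.19). Seen from the other side, each Zac1 library correlated best with the control library of its own number. For Zac1 library 2 this was 0.072, beside 0.065 with control library 5. Whether the numbers pair the samples is therefore not settled, and the main fit does not use them as pairs. No partner gene and no neighbour of Sept4 was called under any alternative. Sept4 had 107 control counts in all, and its fold change had a wider 95% interval between libraries (2.97 to 6.09) than from counting alone (3.47 to 5.30).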

Other observations

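Around the 10 septins, 22 annotated neighbours or overlapping genes were in the table, of which 17 were tested and 0 were called by edgeR, DESeq2 or limma-voom, beside 2.18% of all tested genes called by edgeR. Before adjustment (p under 0.05, edgeR), 4 were higher (Ankrd43, Sh3rf3, Ankrd57 and Ankrd56) and 1 was lower (Ccni), beside 5.65% and 1.93% of all tested genes. With the replicate block 1, Ankrd43, was called. These genes were named after their values were seen. Ankrd43, beside Sept8, stood at 0.350 ± 0.0400 CPM in control and 0.731 ± 0.149 CPM in Zac1 libraries (log2 1.05 ± 0.26, edgeR adjusted p = 0.0546). Ccni, a cyclin gene that overlaps Sept11 on the opposite strand, stood at 205 ± 7.57 against 188 ± 7.73 CPM (log2 -0.12 ± 0.05, edgeR adjusted p = 0.432).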
